A study of Mus musculus with 3 samples.

Results

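The regions described here are stretches of mouse DNA outside every gene of the GENCODE annotation and within 100 kb of a protein-coding gene. They were open to the enzyme DNase I in all 3 libraries of the series. DNase-seq maps such open stretches from the fragment ends that the enzyme leaves where DNA is not wrapped in nucleosomes. The members were chosen by the measured peaks: overlapping peaks of the 3 libraries were merged, and a merged region was kept when it held a peak of every library, lay outside all GENCODE gene bodies, was more than 1000 bp from any transcription start site (TSS) and was at most 100 kb from a protein-coding TSS. The rule left 4319 regions of 131881 merged regions, and of the 25972 regions found in all 3 libraries. Among the other shared regions, 14947 lay at a promoter, 4911 in an intron, 1327 in an exon and 468 in a gene desert, beyond 100 kb from a protein-coding TSS.

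All 3 libraries form 1 group: whole liver of mouse embryos at 13.5 days, from wild-type animals of strain C57BL/6N,129 that hold 1 copy of a yeast artificial chromosome called A20. The labels call them biological replicates 1, 2 and 3, give separate biosamples and name the same donor record for all, with sex not collected, so how far their spread is technical is unknown. With no second group there was no contrast to test. An exact paired permutation test over 3 libraries cannot go below p = 0.25, so values are given library by library, and the membership itself, fixed by the presence of peaks, is no finding. The libraries differed in size: they held 34369, 122281 and 60862 peaks and 89836, 342756 and 156638 footprints in replicates 1, 2 and 3. Read depth is not given in the files. A peak at the promoter in every library was found for 92.5% of the erythroid list and 18.8% of the hepatoblast list, beside 51.4% of all protein-coding genes. Among hepatoblast genes, the promoter of Alb (albumin) had no peak in any library, while Foxa3, a liver transcription factor, had promoter signals of 4.23, 13.6 and 8.09.

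Open regions outside genes hold enhancers, which bind transcription factors and act on promoters at a distance, and sites of CTCF, a zinc-finger protein that anchors chromatin loops and insulates neighbouring domains. Genes for transfer RNA (tRNA), which RNA polymerase III reads through internal promoter elements named the A box and the B box, also lie between protein-coding genes. The fetal liver is the main site of red cell formation at mid-gestation. In red cell precursors GATA1 binds the letters AGATAA, often in one complex with TAL1, which binds a neighbouring E-box (CANNTG), while KLF1 binds CCACACCC and NFE2 binds the MARE site. Hepatoblasts, the precursors of hepatocytes, depend on HNF4A, HNF1, FOXA and CEBP factors.

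The sequences of the 5 members with the strongest signals, ordered by their worst rank over the libraries, are printed first. All sequences are from the RefSeq GRCm38.p6 (mm10) genome, are named by the nearest protein-coding gene and run 5′ to 3′. Here capitals mark bases inside a footprint in all 3 libraries, a footprint being a short stretch protected within an open region.
Igf2bp3, chr6:49236431-49236630, plus strand: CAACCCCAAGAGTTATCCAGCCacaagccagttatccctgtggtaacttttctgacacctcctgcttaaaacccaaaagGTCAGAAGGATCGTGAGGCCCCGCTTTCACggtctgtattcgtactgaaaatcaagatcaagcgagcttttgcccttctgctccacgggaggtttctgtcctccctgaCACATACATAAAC
Cpeb4, chr11:31870691-31870890, plus strand: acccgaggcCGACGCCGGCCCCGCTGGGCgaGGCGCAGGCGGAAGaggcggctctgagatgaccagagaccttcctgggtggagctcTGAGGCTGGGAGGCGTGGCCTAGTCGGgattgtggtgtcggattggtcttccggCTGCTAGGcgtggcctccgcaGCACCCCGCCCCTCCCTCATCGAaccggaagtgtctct
Ctdsp1, chr1:74397381-74397580, plus strand: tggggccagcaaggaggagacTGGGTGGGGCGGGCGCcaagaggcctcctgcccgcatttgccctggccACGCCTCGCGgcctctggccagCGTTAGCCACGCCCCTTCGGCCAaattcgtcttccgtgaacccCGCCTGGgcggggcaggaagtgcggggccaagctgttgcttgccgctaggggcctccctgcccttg
Trappc9, chr15:73067521-73067720, plus strand: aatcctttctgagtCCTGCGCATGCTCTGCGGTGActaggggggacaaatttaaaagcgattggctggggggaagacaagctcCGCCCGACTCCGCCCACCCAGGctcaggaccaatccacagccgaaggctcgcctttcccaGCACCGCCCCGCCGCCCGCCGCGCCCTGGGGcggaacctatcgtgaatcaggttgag
Zfp395, chr14:65343741-65343940, plus strand: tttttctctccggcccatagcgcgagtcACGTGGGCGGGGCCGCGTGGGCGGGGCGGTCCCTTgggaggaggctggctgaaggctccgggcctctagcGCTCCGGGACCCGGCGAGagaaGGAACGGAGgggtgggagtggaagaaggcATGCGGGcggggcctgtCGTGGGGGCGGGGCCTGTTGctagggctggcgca
Protected bases made up 52 to 92 of the 200 bases in the 10 strongest members other than Cirbp, which had 33. The first sequence differed from the rest in composition. Of its 31-base words, 70% occurred elsewhere in the genome, and its base composition was 49% G or C.

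Members with CTG followed 8 bases later by AGATAA, the spacing of the TAL1 and GATA1 composite site, are shown next. As a group they ranked differently between the libraries. Those printed are the 3 best ranked of the group and stood high in every library. Capitals mark the composite.
Dus3l, chr17:56762284-56762343, plus strand: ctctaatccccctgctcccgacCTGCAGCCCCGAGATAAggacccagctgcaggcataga
Atp2b4, chr1:133825751-133825810, plus strand: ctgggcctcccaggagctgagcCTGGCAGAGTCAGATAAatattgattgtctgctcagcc
Cebpe, chr14:54706016-54706075, minus strand: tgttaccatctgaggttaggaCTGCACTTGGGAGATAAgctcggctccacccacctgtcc
The CTCF sites of the 3 strongest members with 1 are shown because CTCF was the commonest long motif. Capitals mark the core searched for, which is CCA, 2 free bases, AG, 2 free bases and GGC.
Ptma, chr1:86525451-86525510, minus strand: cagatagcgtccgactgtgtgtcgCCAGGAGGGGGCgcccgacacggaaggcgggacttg
Ccne1, chr7:38085009-38085068, plus strand: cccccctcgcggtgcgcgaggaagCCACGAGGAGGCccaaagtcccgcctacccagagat
Stard10, chr7:101310766-101310825, plus strand: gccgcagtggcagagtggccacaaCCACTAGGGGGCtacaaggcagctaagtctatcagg
The B boxes of 3 tRNA genes on members are shown because tRNA genes were on some of the strongest members. Capitals mark the B box, searched as GTTCGANNC.
Lrp3, chr7:35234756-35234815, minus strand: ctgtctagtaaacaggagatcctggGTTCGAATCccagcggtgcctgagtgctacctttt
Borcs6, chr11:69063028-69063087, minus strand: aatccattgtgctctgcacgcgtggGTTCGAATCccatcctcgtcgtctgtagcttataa
Atp5h, chr11:115413290-115413349, minus strand: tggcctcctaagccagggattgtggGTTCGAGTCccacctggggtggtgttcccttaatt
Finally, 3 members near Hbb-y lie on hypersensitive sites 2, 1 and 3, in that order, of the beta-globin locus control region, the distal enhancer cluster of the beta-globin genes. Capitals mark matches of AGATAA, CCACACCC, the MARE letters GCTGANTCA and the E-box letters CAGNTG on either strand.
Hbb-y, chr7:103861001-103861200, plus strand: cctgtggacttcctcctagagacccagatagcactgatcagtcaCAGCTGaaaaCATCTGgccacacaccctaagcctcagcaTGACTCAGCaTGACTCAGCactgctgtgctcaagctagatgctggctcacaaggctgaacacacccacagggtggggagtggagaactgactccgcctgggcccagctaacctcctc
Hbb-y, chr7:103859171-103859370, plus strand: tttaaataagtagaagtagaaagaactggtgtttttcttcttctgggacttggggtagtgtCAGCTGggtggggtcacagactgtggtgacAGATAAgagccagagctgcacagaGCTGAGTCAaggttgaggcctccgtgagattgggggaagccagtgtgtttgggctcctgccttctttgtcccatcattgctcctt
Hbb-y, chr7:103865791-103865990, plus strand: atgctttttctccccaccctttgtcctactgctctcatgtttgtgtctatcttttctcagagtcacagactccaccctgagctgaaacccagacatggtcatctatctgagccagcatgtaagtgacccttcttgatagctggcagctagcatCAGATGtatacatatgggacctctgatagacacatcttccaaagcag

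Members were short, and most lay on the upstream side of their nearest TSS, a side that the rule favours. Their median width was 220 bp (124 to 2380 bp), and together they covered 1.07 Mb. The median distance to the nearest protein-coding TSS was 17932 bp, with quartiles at 7541 and 36681.5 bp, and 2906 members (67.3%) lay on the upstream side. The rule leaves out gene bodies, which run downstream from the TSS, so this share is no finding about the members. They had 3012 different nearest genes, and 1536 members (35.6%) had another member within 10 kb. Chromosome 11 held 416 members, or 3.41 per Mb, against 1.58 per Mb over the genome, and the Y chromosome held 9.

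The distance limits cut through a continuous range of signals. The signal is the authors' value for each peak, whose definition is not given in the sources used here, and its scale was not assumed to be shared between libraries. Just inside the limit of 100 kb, a member 99917 bp from Ralgapa2 had signals of 1.12, 1.21 and 0.810 in replicates 1, 2 and 3. The next inside, 99932 bp from 4930544G11Rik, had 0.493, 0.896 and 2.54. Just outside it, a region 100042 bp from Aatf had 0.672, 1.55 and 2.19 and one 100434 bp from Chic2 had 0.918, 1.15 and 0.602, so the signals on either side overlapped. At the inner limit, a member 1001 bp from the TSS of Fgf18 had 1.12, 1.26 and 0.637, and one near Ifit2, 1004 bp from a TSS, had 2.53, 2.31 and 1.14. Left out just below that limit were a region 998 bp from Oxtr with 1.13, 0.997 and 0.367 and one 998 bp from Maoa with 2.08, 6.64 and 3.64.

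Members had lower median signals than shared promoters and exons, and medians close to those of shared introns. The median signal of the members was 1.13 in replicate 1, 1.47 in replicate 2 and 0.914 in replicate 3, against 2.25, 5.05 and 3.07 at shared promoters. The ratio of the medians was 0.502, 0.290 and 0.298, or 0.363 ± 0.120 (SD, n = 3), so members were below promoters in 3 of 3 libraries. Shared introns had medians of 1.02, 1.42 and 0.928, and the ratio of members to introns was 1.11, 1.03 and 0.985, on both sides of 1. Shared exons had medians of 1.30, 1.71 and 0.941, and the ratio of members to exons was 0.871, 0.859 and 0.971, below 1 in 3 of 3 libraries. Members exceeded shared gene deserts in 3 of 3 libraries, with ratios of 1.58, 1.80 and 1.70 (1.69 ± 0.111, SD, n = 3). In a bulk tissue, a region open in fewer cells and one less open in each cell cannot be told apart.

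**Figure D1:**
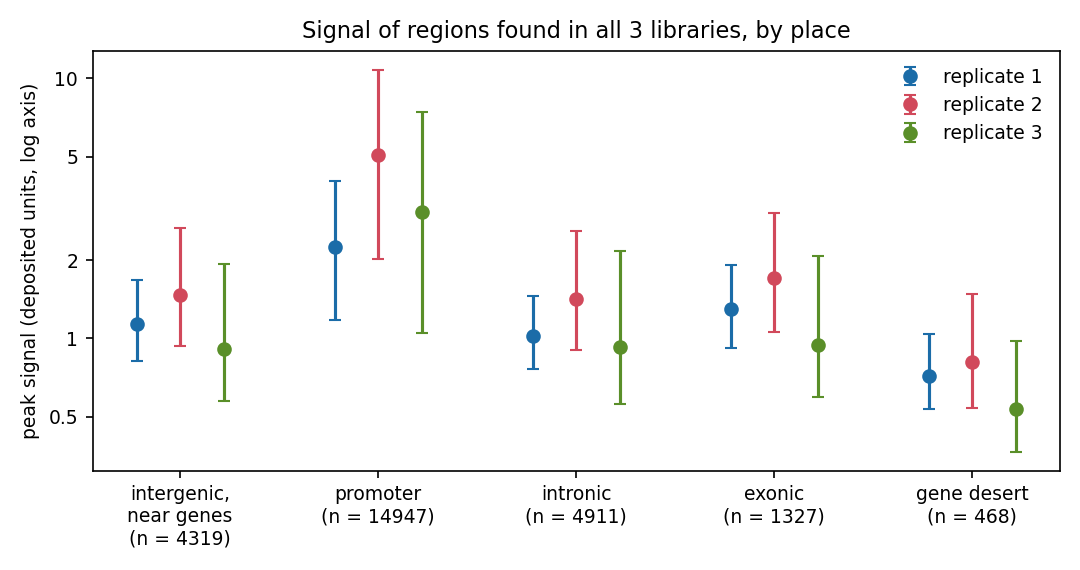
Median signal (y axis, the authors' units, log axis) of members and of the other classes of shared regions in each of the 3 libraries, with bars from the lower to the upper quartile. Members (median 1.13, 1.47 and 0.914 in replicates 1, 2 and 3) sit below promoters (2.25, 5.05 and 3.07) and above gene deserts (0.717, 0.814 and 0.537).

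The signal of members was lower farther from the gene. Members at 1000 to 2500 bp (n = 313) had medians of 1.31, 1.84 and 1.25, those at 10 to 25 kb (n = 1281) had 1.19, 1.57 and 0.962, and those at 50 to 100 kb (n = 680) had 0.952, 1.13 and 0.703. The order of these 3 bins was the same in every library.

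The libraries ranked the members differently, replicate 1 most of all. Over the 4319 members, Spearman's rho was 0.903 between replicates 2 and 3, 0.737 between replicates 1 and 2 and 0.557 between replicates 1 and 3, a description over regions that share their libraries. In the shorter of the authors' peak lists, 62.7% of members were listed in replicate 1, 97.2% in replicate 2 and 82.2% in replicate 3, and 2438 members (56.4%) were listed in all 3. The strongest member signals were 31.8, 45.9 and 127 and the weakest 0.190, 0.125 and 0.104 in replicates 1, 2 and 3.

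The value of 127 belonged to a member 35451 bp from Pak3, a kinase gene on the X chromosome, and was picked with its values known. Its signals were 19.03, 5.29 and 127 in replicates 1, 2 and 3, so it was the strongest member of replicate 3 and stood at percentile 90.4 in replicate 2. Of its words, 28.5% occurred elsewhere in the genome.

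In base composition members resembled intronic regions more than promoters. The mean G or C content of the 200 bp around the centre was 54.0% in members, 65.1% in promoters, 54.0% in introns and 46.8% in windows 2000 bp to either side of each member. Members held 5.79 CpG dinucleotides per 200 bp, against 17.1 in promoters, 4.76 in introns and 2.62 in the windows beside. Repeat-masked bases made up 11.1% of member windows and 30.9% of windows beside.

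CTCF was the leading sequence feature of the members. The core motif, searched on both strands of the central 200 bp, was in 1392 of 4319 members, or 32.2% (exact binomial 95% interval 30.8 to 33.6%, which covers counting error over regions alone). It was in 2.24% of windows beside, 4.67% of promoters, 29.7% of introns, 27.4% of exons and 24.6% of gene deserts. The share in members was 14.4 times that in windows beside.

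**Figure D2:**
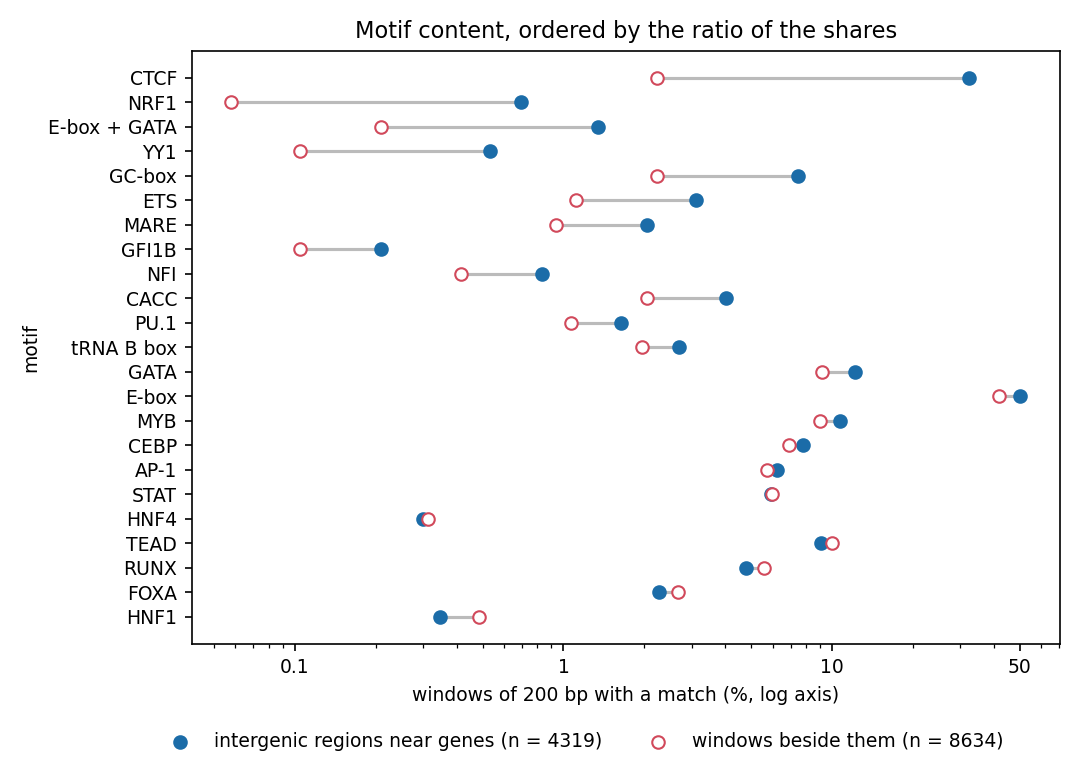
Share (x axis, percent, log axis) of members and of the windows beside them whose 200 bp hold each motif (y axis), ordered by the ratio of the shares. CTCF stands at 32.2% in members against 2.24% in windows beside, and AGATAA at 12.2% against 9.17%.

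Motifs of the blood and liver factors gave a wider range of shares. AGATAA was in 527 members (12.2%, interval 11.2 to 13.2%), against 9.17% of windows beside, 3.16% of promoters and 16.3% of introns. The composite of CTG, 8 free bases and AGATAA was in 58 members (1.34%, interval 1.02 to 1.73%), against 0.208% of windows beside, 0.227% of promoters and 2.52% of introns. The MARE site, GCTGANTCA, was in 2.04% of members and 0.938% of windows beside, and CCACACCC in 4.03% and 2.04%. The E-box alone, searched as CAGNTG, was in 50.2% and 41.8%. Not every motif of a blood factor had a higher share in members. RUNX (TGTGGTT) was in 4.77% of members and 5.59% of windows beside, and STAT (TTCNNNGAA) in 5.90% and 5.95%. MYB (AACTGNC) was in 10.7% and 9.05%, PU.1 (GAGGAAGT) in 1.64% and 1.07%, and GFI1B (AATCACTGC) in 0.208% and 0.104%. The composite contains an AGATAA match, and a MARE match contains the shorter AP-1 letters TGANTCA.

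Motifs of 3 hepatocyte factors had no higher shares in members than beside them. HNF4 (CAAAGTCCA) was in 0.301% of members and 0.313% of windows beside, FOXA (TGTTTAC) in 2.27% and 2.66%, and HNF1 (GTTAATNAT) in 0.347% and 0.486%. CEBP (TTGCNNAA) was in 7.80% of members and 6.94% of windows beside. The windows beside held less G or C (46.8%) than members or introns (54.0% each). How far base composition shaped these shares was not tested. In introns HNF4 was in 0.163%, FOXA in 2.26%, HNF1 in 0.143% and CEBP in 7.94%. In promoters the shares were 0.140%, 1.39%, 0.0602% and 4.25% in the same order. The HNF4 and HNF1 letters were in only 13 and 15 members. Of motifs typical of promoters, NRF1 (GCGCATGCG) was in 0.695% of members and 0.0579% of windows beside, the GC-box (GGGGCGG) in 7.43% and 2.22%, and the ETS motif (CCGGAAG) in 3.13% and 1.11%. Promoters held them at 2.94%, 37.0% and 13.5% in the same order. A match is a run of letters and is not evidence of binding.

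CTCF and the composite sat at the middle of the members. In 50 bp bins, CTCF sites numbered 15.2 and 15.4 per 100 members in the bins on either side of the centre, against 0.440 and 0.556 in the outermost bins. The composite numbered 0.463 and 0.417 per 100 members at the centre, against 0 and 0.0232 in the outermost bins. AGATAA alone had a shallower profile, with 3.73 and 3.45 at the centre and 2.52 and 2.38 at the edges.

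**Figure D3:**
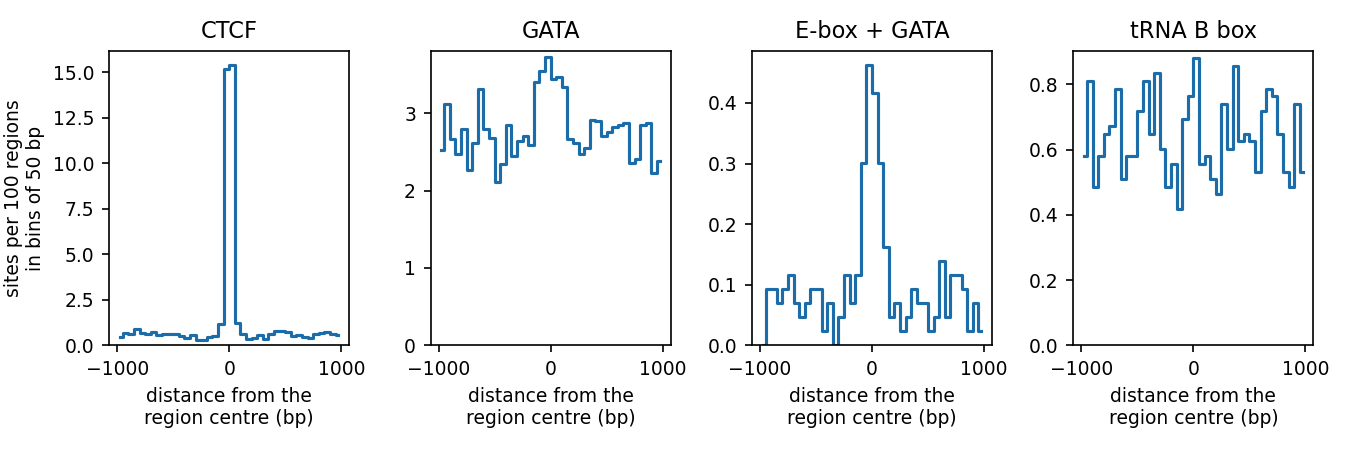
Motif sites per 100 members (y axis) in 50 bp bins by distance from the region centre in bp (x axis). The 4 panels show CTCF, the GATA letters, the composite (titled E-box + GATA) and the B box letters (titled tRNA B box). CTCF reaches 15.4 per 100 members beside the centre and is at or below 0.556 in the outermost bins.

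A scan of the gap between CTG and AGATAA placed the 8-base spacing first. Of the 538 AGATAA sites with room for the longest gap in the window, 58 (10.8%) had CTG at a gap of 8 bases and 33 (6.13%) at a gap of 7. The other gaps had a median of 3.25% (2.04 to 6.13%). In the windows beside, with 752 sites, the gap of 8 gave 2.39% and the others a median of 1.99% (1.20 to 3.06%).

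**Figure D4:**
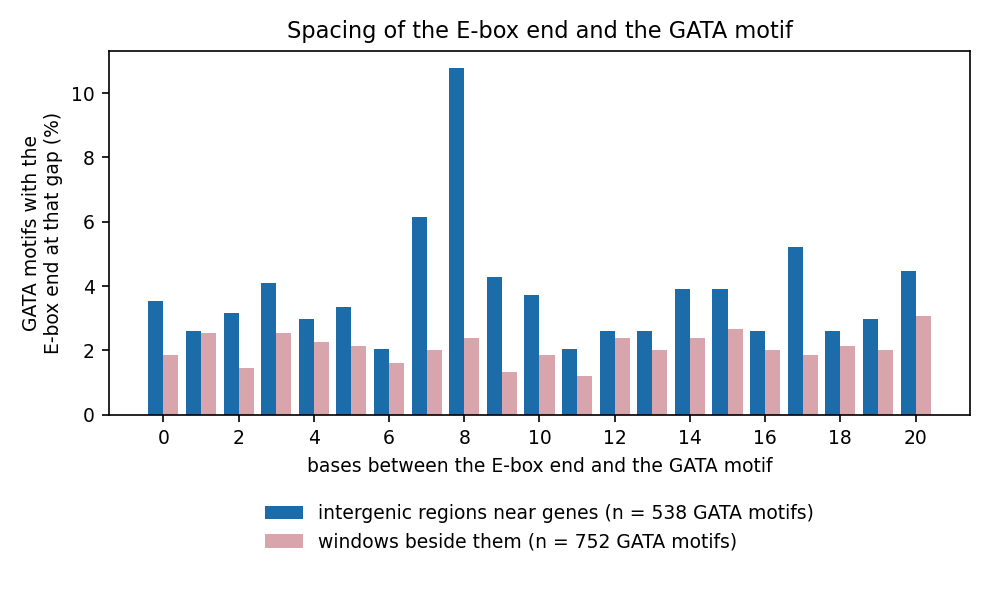
Share of AGATAA sites (y axis, percent) with CTG, the end of an E-box, before it at each gap in bases (x axis, 0 to 20), in members and in the windows beside them. In members the gap of 8 reaches 10.8% and the next, 7, reaches 6.13%, while the windows beside reach 2.39% at a gap of 8.

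Nearly all members held footprints, as did the shared regions at promoters, in introns and in exons. At least 1 footprint lay in 92.7%, 99.6% and 94.4% of members in replicates 1, 2 and 3 (95.5 ± 3.57%, SD, n = 3), at an average of 2.29, 3.81 and 2.85 footprints per member. The mean share over the libraries was 95.3% in exons, 94.0% in introns, 93.8% in promoters and 87.6% in gene deserts. In 3226 members (74.7%) a footprint of replicate 1 overlapped one in each of the other libraries, against 76.1% of exons, 74.4% of promoters, 67.7% of introns and 50% of gene deserts. The member with most such footprints of replicate 1, 95750 bp upstream of Rab39b, had 10 of them, and 14, 10 and 9 footprints in all in replicates 1, 2 and 3. Every footprint carries the same value in the files, so they were counted and not weighed, and they come from the same reads as the peaks.

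Footprints covered CTCF sites and matches of the B box letters far more than AGATAA sites. In replicates 1, 2 and 3, footprints covered 15.4%, 28.1% and 18.5% of all bases of the member windows. This level averages the centres and edges of the windows, while most CTCF sites lay near the centre. It is therefore not matched for position. Footprints covered the centres of 82.8%, 96.0% and 75.04% of 1422 CTCF sites. That was a mean of 4.28 ± 1.01 times the level of all bases (SD, n = 3). Matches of the B box letters (117 sites) were covered at 76.1%, 82.1% and 82.1%, and NRF1 sites (44) at 75%, 88.6% and 86.4%. The B box matches were counted in all members, whether or not a tRNA gene lay there. These letters were in 2.69% of members and 1.96% of windows beside.

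AGATAA sites (599) were covered at 11.2%, 34.9% and 26.7%, below the level of all bases in replicate 1 and above it in the other libraries. The composite (61 sites) was covered at 9.84%, 37.7% and 31.1%, with the same split. Coverage was counted at the middle base of a match, which in the composite is a free base between CTG and AGATAA. MARE sites (109), bound by NFE2 and related factors, were covered at 19.3%, 48.6% and 49.5%. FOXA sites (98) were covered at 4.08%, 11.2% and 7.14%, below the level of all bases in each library.

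A group of 150 members overlapped tRNA genes in the RefSeq annotation, and they were among the most open. The GENCODE annotation behind the rule lists no tRNA genes, so these members counted as intergenic. Their median signal was 2.46, 4.20 and 2.90 in replicates 1, 2 and 3. Their median percentile, the share of members with a lower signal in the same library, was 89.0, 86.4 and 82.6 (86.0 ± 3.20, SD, n = 3). Of 403 RefSeq tRNA genes, 152 (37.7%) lay on a member and 225 (55.8%) on any shared region.

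The tRNA members were clustered along the genome. Between bases 21160721 and 23526660 of chromosome 13 (mm10) lay 55 of the 150, or 36.7%, and chromosome 11 held 27. The shares differed by amino acid: 88.2% of 17 threonine tRNA genes lay on a shared region, 86.4% of serine and 81.3% of isoleucine genes, but 10.5% of 57 cysteine genes. The strongest was an arginine tRNA gene, n-TRccg1, on a member 12741 bp upstream of 1810010H24Rik with signals of 7.75, 20.5 and 12.0. Members with the printed B boxes near Lrp3 (threonine), Borcs6 (serine) and Atp5h (arginine) had signals of 6.19, 14.2 and 9.54, of 5.05, 12.8 and 8.49, and of 5.93, 12.0 and 7.85. A leucine tRNA gene, n-TLcag4, lay on a member near Pllp with 7.65, 18.4 and 10.3. The genes with the most members, Trim27 with 12, Abt1 with 11 and Zfp184 with 10, owed 7, 8 and 9 of them to tRNA genes. Gpx5 followed with 9, 8 of them on tRNA genes. Ptma had 9 members with none on a tRNA gene and 4 with a CTCF core, and Gm21860 on the Y chromosome had 9, of which 5 were copied sequence.

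Members with different motifs stood at different ranks in the libraries. Members with AGATAA had median percentiles of 37.5 in replicate 1, 64.6 in replicate 2 and 74.8 in replicate 3. Those with a CTCF core had 52.3, 41.0 and 40.2. The 58 with the composite had 22.0, 75.6 and 90.2, and the 2365 with no tRNA gene, CTCF core or AGATAA had 47.9, 50.1 and 50.2. Replicate 1 placed AGATAA members low where the other libraries placed them high. It placed CTCF members near the middle, where the other libraries placed them lower.

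The split held for single members. Of the 58 members with the composite, 58 ranked higher in replicate 3 than in replicate 1, and 56 ranked higher in replicate 2 than in replicate 1. The same was true in replicate 3 against replicate 1 for 381 of 527 AGATAA members (72.3%), 364 of 1392 CTCF members (26.1%) and 45.5% of the members with none. The 88 members with a MARE site had median percentiles of 45.1, 75.3 and 80.8. The 135 with an ETS motif had 65.9, 66.6 and 67.7, with no such spread.

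The composite members whose sequences are printed were picked as the best ranked of the 58 by their worst rank. Their high ranks in every library therefore do not stand for the group. The member 2378 bp upstream of Dus3l, a tRNA-modifying enzyme, had signals of 3.72, 10.95 and 12.04. The one 24640 bp upstream of Atp2b4, a calcium pump of the plasma membrane, had 3.34, 15.5 and 19.2, which placed it 215, 41 and 9 among the 4319. The one 6014 bp downstream of Cebpe, a factor of granulocyte maturation, had 2.53, 11.5 and 12.0. The 58 composite members had 56 different nearest genes, so few shared a gene.

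The 863 strongest and 864 weakest members of each library showed the split most clearly for AGATAA. In replicate 3, AGATAA was in 27.2% of the strongest and 7.99% of the weakest, and the CTCF core in 9.15% and 40.05%. In replicate 1, AGATAA was in 6.26% of the strongest and 18.2% of the weakest. The CTCF core was in 29.3% and 25.5%, both below the 32.2% of all members. In replicate 2, AGATAA was in 17.6% and 9.84%, and the CTCF core in 15.2% and 36.8%. The tRNA genes were alike in all libraries, on 12.3%, 11.5% and 10.2% of the strongest and on 0%, 0.231% and 0% of the weakest in replicates 1, 2 and 3.

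**Figure D5:**
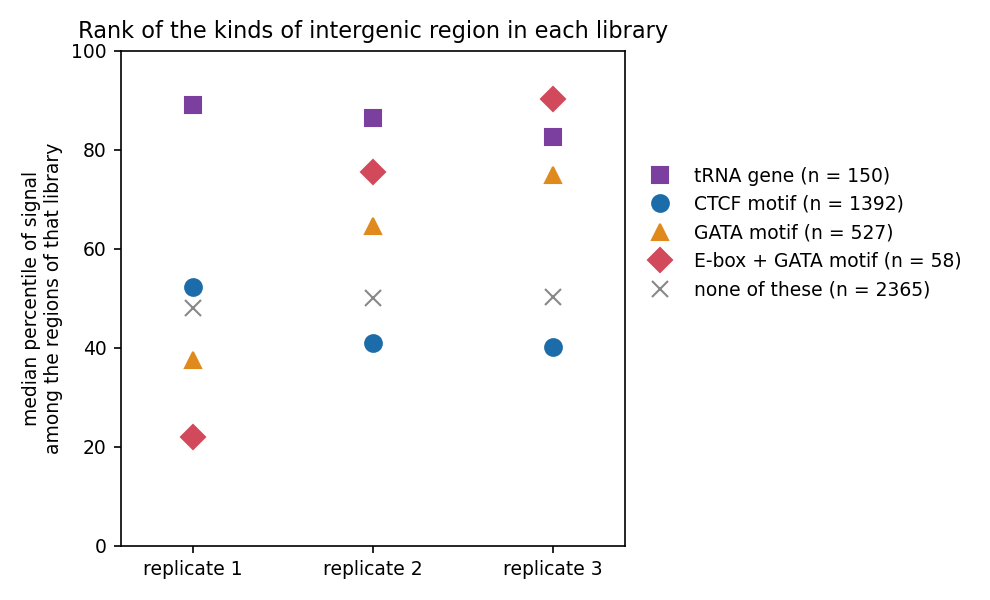
Median percentile of signal within each library (y axis, percent of members with a lower signal) for members on tRNA genes and with a CTCF core, AGATAA, the composite of CTG and AGATAA, or none. The composite group stands at 22.0, 75.6 and 90.2 in replicates 1, 2 and 3 and the tRNA group at 89.0, 86.4 and 82.6.

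Base composition and library size were measured beside this split. Over the members, the G or C content and the log2 ratio of replicate 3 to replicate 1 had a Spearman rho of 0.0275, a description with n = 4319. With the log2 ratio of replicate 2 to replicate 1, rho was 0.223. Between G or C content and the signal itself, rho was 0.254, 0.292 and 0.160 in replicates 1, 2 and 3. The median log2 ratio of replicate 3 to replicate 1 was then taken within the members of lowest, middle and highest G or C content. It was 1.81, 1.54 and 1.40 for AGATAA members without CTCF or tRNA, and -0.60, -0.65 and -0.77 for CTCF members without AGATAA or tRNA. It was -0.42, -0.36 and -0.22 for members with none of these, and because the libraries may not share a scale these ratios are read against each other and not against 0. With the same number of peaks taken from each library, 55 of 55 composite members, 77.1% of AGATAA members and 20.8% of CTCF members ranked higher in replicate 3 than in replicate 1. The cause of the split was not tested.

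The demand for a peak in replicate 1 decided how many members there were. Without replicate 1 the rule gave 9575 members in place of 4319, with AGATAA in 19.5% and CTCF in 21.003%. At the same distances outside genes, the 5240 regions found in replicates 2 and 3 and not in replicate 1 held AGATAA in 25.3%, the composite in 2.69% and CTCF in 11.7%. The 766 found in replicates 1 and 2 and not in 3 held AGATAA in 4.44%, the composite in 0.131% and CTCF in 29.4%.

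The strongest member in 2 of 3 libraries lay 21464 bp upstream of Igf2bp3, which encodes an RNA-binding protein of fetal tissues, at chr6:49236421-49236640. Its signals were 31.8, 45.9 and 28.03, and its copied words, described with its sequence, leave the source of its reads uncertain. The next, 1311 bp upstream of Cpeb4, a regulator of messenger RNA translation needed in red cell maturation, had 8.90, 25.04 and 20.8 and lay 40 bp from a RefSeq TSS, with 18 CpG in 200 bp. Members near Ctdsp1 (8.16, 26.6 and 19.2), Trappc9 (8.12, 34.3 and 28.7) and Zfp395 (7.69, 26.4 and 17.98) followed. A member 51795 bp from the Extl3 TSS of GENCODE had 6.15, 17.7 and 15.9 and lay 2 bp from a RefSeq TSS of the same gene.

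The others of the 10 strongest held 15 to 21 CpG in 200 bp. A member 1206 bp upstream of Ptma, the gene of the nuclear protein prothymosin alpha, had signals of 7.21, 21.5 and 17.7 and was the strongest with a CTCF core, which a footprint covered in 3 libraries. A second member near Igf2bp3, at 3004 bp, had 6.45, 25.4 and 22.04. Members near Cirbp, a cold-inducible RNA-binding protein, and Wnt7b, a secreted signal, had 6.21, 24.1 and 20.3 and 7.82, 23.8 and 15.3, and the Wnt7b member spanned the RefSeq TSS of D130051D11Rik. None of the 10 held AGATAA, and 1 held a CTCF core. The other strong CTCF members printed above lay 22414 bp from Ccne1 (6.25, 17.98 and 14.3) and 6106 bp from Stard10 (5.68, 13.8 and 12.6), and the Ccne1 motif was covered by a footprint in 0 of 3 libraries.

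Some members lay at the start of a transcript in another annotation. A RefSeq TSS lay within 1000 bp of 354 members (8.20%), whose median percentiles were 54.6, 60.6 and 61.9. The 273 members with at least 15 CpG in 200 bp, 55 of them near a RefSeq TSS, had 86.4, 83.7 and 73.9. Neither a RefSeq TSS within 1000 bp nor a tRNA gene was found for 3831 members (88.7%). A RefSeq gene of any kind overlapped 907 of all members, although GENCODE gene bodies had been left out.

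The 3 weakest members by their ranks held copied sequence. A member near Trim43b had signals of 0.246, 0.406 and 0.305 with 58.4% of its words found elsewhere in the genome. A member near Gm7978 had signals of 0.291, 0.129 and 0.104 with 98.4% of its words found elsewhere, and one near Gm10340 had 0.190, 0.125 and 0.346 with 100%. Of all members, 85 (1.97%) had 50% or more of their words elsewhere in the genome. Their median percentiles were 36.7, 17.0 and 34.8, and their values are uncertain because reads cannot be assigned to 1 copy.

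Members were set beside the promoters of their nearest genes. Of 21827 protein-coding genes, 51.4% had a peak at the promoter in each of the 3 libraries, 13.8% were the nearest gene of a member and 40.4% had a member within 100 kb. The nearest gene of 2742 members (63.5%, interval 62.0 to 64.9%) had such a promoter, and so did 62.3% of the 3012 nearest genes. This share was not particular to the members: it was 68.5% for shared intronic regions and 63.7% for shared gene desert regions. Among the members, the share was 68.1% for those with AGATAA, 61.6% for those with CTCF and 56.0% for those on tRNA genes.

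Genes with members nearby had open promoters at a higher share than genes without. A promoter peak was present in 67.8 ± 7.72% of genes with 1 member within 100 kb (SD, n = 3 libraries), 69.2 ± 6.86% of those with 2 to 3, 71.6 ± 8.31% of those with 4 to 7 and 64.8 ± 7.06% of the 110 with 8 or more, against 52.9 ± 6.91% of the 13017 with no member. The groups with members exceeded the genes without in 3 of 3 libraries, as the shares in genes with 8 or more were 59.1%, 72.7% and 62.7%, against 48.1%, 60.8% and 49.7% in genes without.

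Among the gene lists, those of blood progenitors and housekeeping genes had members nearest to most of their genes. Members were nearest to 11 of 18 progenitor genes (61.1%) and 11 of 20 housekeeping genes (55%), beside the 13.8% of all protein-coding genes. They were nearest to 10 of 40 erythroid, 3 of 10 globin, 4 of 25 haem and iron, 7 of 32 hepatoblast, 2 of 20 hepatocyte, 4 of 18 myeloid, 1 of 15 lymphoid, 2 of 16 megakaryocyte, 2 of 16 endothelial, 3 of 16 mesenchymal, 2 of 15 neural and 1 of 15 muscle genes. The order differed for members within 100 kb, which neighbouring genes can share. Such a member was found for 100% of globin, 90% of housekeeping, 77.8% of progenitor, 60% of lymphoid and 57.5% of erythroid genes. For myeloid, haem and iron, hepatoblast and hepatocyte genes it was 55.6%, 48%, 40.6% and 40%. It was 20% to 33.3% in the remaining lists, beside 40.4% of all protein-coding genes. The lists were compiled with earlier results of these data known and are a description.

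Of the 14 members near erythroid genes, 11 ranked higher in replicate 3 and 9 in replicate 2 than in replicate 1. In replicate 3 against replicate 1, 11 of 19 members near progenitor genes and 16 of 29 near housekeeping genes also ranked higher. The share was 45.5% of members with no tRNA gene, CTCF core or AGATAA. The erythroid members had median percentiles of 49.7, 84.3 and 87.9. Of them, 6 (42.9%) held AGATAA, against 12.2% of all members. A member 9961 bp upstream of Slc4a1, the band 3 anion exchanger of the red cell membrane, had signals of 1.57, 7.89 and 12.8 and spanned the RefSeq TSS of Gm34253. One 2242 bp upstream of Epb41, protein 4.1 of the membrane skeleton, had 1.67, 10.1 and 14.1. The member 8386 bp upstream of Tal1, the factor of the composite site, had 4.22, 7.29 and 3.89 and ranked highest in replicate 1.

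The 6 members near haem and iron genes included strong ones. Of these 6, 5 ranked higher in replicate 3 than in replicate 1, 3 held a CTCF core and 1 held AGATAA. One 9521 bp upstream of Hmox1, the haem-degrading enzyme, had 3 MARE sites and signals of 2.90, 13.4 and 12.7. The member 1070 bp upstream of Fech, which inserts iron into haem, carried the composite and had 1.47, 6.31 and 11.4. One 1885 bp upstream of Fth1, the ferritin heavy chain that stores iron, had 1.25, 5.56 and 6.16.

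The 13 members near hepatoblast genes had median percentiles of 44.7, 35.0 and 44.9. Of them, 6 (46.2%) held a CTCF core, against 32.2% of all members. AGATAA was in 0 of them, against 12.2% of all members. A member 19922 bp downstream of Krt8, a keratin of epithelial cells, had signals of 2.77, 5.03 and 4.51. One 76226 bp downstream of Cebpb, a liver and myeloid factor, had 1.71, 5.95 and 4.14. One 14809 bp upstream of Dlk1, a hepatoblast surface protein, had 3.64, 3.98 and 1.83. Of other lists, the member 3777 bp upstream of Reln, a secreted glycoprotein, held 3 AGATAA sites and had 0.885, 8.01 and 16.3. Cdh5, the cadherin of endothelial cells, had a member at 72667 bp with 1.11, 1.07 and 0.492.

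The best ranked members of the remaining lists fell on both sides. A member 13987 bp upstream of Actb, cytoplasmic actin, had signals of 2.54, 11.2 and 16.005. One 6857 bp upstream of Gls2, a liver glutaminase, had 0.829, 2.48 and 2.44. Both ranked higher in replicate 3 than in replicate 1.

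Members with a CTCF core went the other way. The one 73727 bp downstream of Zfp36l2, a regulator of messenger RNA decay in blood progenitors, had 4.71, 6.97 and 3.34 and ranked 79, 243 and 643. The one near Slc17a7, a vesicular glutamate transporter of neurons, had 2.89, 3.41 and 1.32, and the one near Tnnt2, cardiac troponin T, had 1.69, 2.10 and 0.858. The one near Bcl11b, a T cell factor, had 0.806, 0.781 and 0.436. A member near Gp1bb, a platelet receptor subunit, had no CTCF core and 2.13, 2.50 and 1.38.

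A globin gene was the nearest gene of 5 members, 4 of which ranked higher in replicate 3 than in replicate 1. One 1550 bp downstream of the Hba-a1 TSS, an adult alpha-globin gene, had 1.70, 9.08 and 7.82, with 39.5% of its words found elsewhere. One 21172 bp downstream of Hbq1a, a theta-globin gene of the same cluster, had 2.44, 3.55 and 2.35 and was the exception. The beta-globin control region spans several members. Its site 2, at chr7:103861001-103861200, holds a pair of MARE sites next to each other in the sequence shown above. Its signals were 2.99, 11.5 and 13.3, which ranked it 287, 93 and 48 of 4319. Site 1, at chr7:103859181-103859360, with 1 AGATAA and 1 MARE, had 0.661, 2.11 and 4.60 and ranked 3770, 1429 and 426. Site 3, at chr7:103865781-103866000, had 0.459, 2.37 and 7.83 and ranked 4252, 1249 and 201. All 3 sites stood lowest in replicate 1 and highest in replicate 3.

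Few members matched elements already catalogued in RefSeq. They numbered 48 (1.11%), with median percentiles of 61.7, 76.1 and 79.4, and 40 of them lay on elements of VISTA, a collection tested for enhancer activity in transgenic embryos. In turn, 34 of 620 VISTA elements (5.48%) lay on a member. Among the 48, 6 held AGATAA (12.5%) and 5 a CTCF core (10.4%). One near Fos, an immediate early factor, had signals of 5.26, 12.0 and 9.05, and one near Btg2, a brake on cell division, had 3.39, 15.2 and 12.1. A member near Olfr65 at a site catalogued as HS-60.7 of the beta-globin locus had 0.649, 3.66 and 7.25.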

How the data were processed

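Per the labels, DNase-seq libraries were made from 3 mouse liver samples and the authors aligned them to mm10. The sources used here name no aligner, and the peak caller and read depth are likewise not given. The authors deposited 2 peak lists per library, called on each library alone, with a signal per peak, and footprints whose value is the same in every row (0.01) with no unit stated. The longer list was used here, and peaks sharing 1 bp were merged.

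Places came from GENCODE M21 (basic set), tRNA genes and catalogued elements from RefSeq. Motifs were searched on both strands of the central 200 bp. Exact binomial (Clopper-Pearson) 95% intervals cover counting error over regions alone. Copied sequence is the share of 31-base words found elsewhere in the genome. Signals were compared between libraries by rank, except where log2 ratios of replicate 3 or replicate 2 to replicate 1 are given. Python 3.11.15 with pandas 2.3.3, NumPy 2.4.6, SciPy 1.17.1 and matplotlib 3.10.9 was used, and the steps were tested on simulated data with known answers.

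The members, motifs and gene lists were chosen with earlier results of these data known. Named members were the 10 strongest and 3 weakest by worst rank, the best ranked of each gene list (3 for globin, erythroid, haem and hepatoblast genes), the genes nearest to most members, the members with most footprints that overlapped in all 3 libraries, the best with the composite or CTCF motif, and those at the limits. Of all these, 1 gene is not reported here. The B box, the tRNA, RefSeq and CpG groups, the beta-globin sites 1 and 3, the catalogued members and 4 of the alternatives were added after values were seen.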

Additional observations from a re-analysis of the deposited data

How the results depend on the processing

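The settings tried were the stricter peak list, equal numbers of the strongest peaks, a larger overlap, distances from the midpoint, other limits and annotations, other windows and leaving out each library. Not counting those that leave out a library, 59 of 72 alternatives over 6 results left the value within the stated spread or within 1.5 times the count, among them 12 of 12 for the share with a footprint. Signal is given here as the mean of the library medians, which was 1.17 in the main setting. With the stricter peak list there were 2440 members, with a mean of the library medians of 1.63. AGATAA was in 10.9% of them, and 59.3% had a shared promoter peak at the nearest gene. Taking an equal number of peaks from each library, the mean of the library medians was 1.58, AGATAA was in 14.1% and CTCF in 28.9%. With protein-coding genes alone as gene bodies, AGATAA was in 11.2% and CTCF in 29.7%. Windows of 100 bp gave 6.30% and 29.96%, and windows of 400 bp gave 21.3% and 33.7%.

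Leaving out 1 library at a time gave 4344 to 9575 members and a mean of the library medians of 0.785 to 1.15. These means cover different libraries, which may not share a scale. AGATAA was in 10.7% to 19.5% of members, CTCF in 21.003% to 32.3% and a footprint in 92.1% to 93.3%. A shared promoter peak at the nearest gene was found for 63.6% to 70.7%. The highest number, AGATAA share and promoter share and the lowest CTCF share came without replicate 1. The cause was not tested. The comprehensive annotation, and leaving out members on tRNA genes, on copied sequence or near a RefSeq TSS, were tried after seeing the data and moved none of the 6 results. No paired analysis was possible because the libraries form 1 group. Read depth is unknown, so a peak absent from replicate 1 does not show closed DNA.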

Other observations

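Outside genes, 17099 regions were found in replicate 2 alone, 2296 in replicate 3 alone and 318 in replicate 1 alone, within the same distances from TSSs as the members. AGATAA was in 7.83%, 25.6% and 6.92% of them, and CTCF in 5.12%, 8.14% and 8.18%. The composite of CTG, 8 free bases and AGATAA was in 2.70% of the regions found in replicate 3 alone. Their median signals were 0.177, 0.388 and 0.369 in the library that held them, below the members' medians of 1.47, 0.914 and 1.13 in the same order.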
